A study of Mus musculus with 4 samples.

Results

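The Hox genes were examined for open chromatin in γδ T cells sorted from fetal mouse thymus. The set comprised 38 members of the 4 Hox clusters, 10 in HoxA, 10 in HoxB, 9 in HoxC and 9 in HoxD, out of 21631 protein-coding genes on chromosomes 1 to 19 and X. Overlapping peaks (by at least 1 bp) were joined across the 4 libraries into regions, and a region belonged to a Hox gene when that gene's body was the nearest protein-coding gene body within 100 kb. This gave 95 Hox regions of 171490 in all, and 33 of the 38 members had at least 1. Gene positions are those of RefSeq on GRCm38.

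The cells were CD4- CD8- TCRγδ+ CD3ε+ thymocytes, also CD24+ with low CD45RB, sorted from pooled fetuses of embryonic day 17 to 18 on a C57Bl/6 background after 5 backcross generations. The wild-type group (WT, 2 libraries) was Maf+/+ Il7rCre and the knockout group (KO, 2 libraries) was Maf fl/fl Il7rCre, so both carried Cre driven from Il7r, a gene of lymphoid precursors. The comparison asks what loss of c-Maf, a transcription factor of IL-17-producing γδ T cells, does to open chromatin, here at the Hox genes. Each library was made by Omni-ATAC-seq, in which Tn5 transposase inserts sequencing adapters into open DNA, from 15000 to 17000 sorted cells. Nothing in the labels ties replicates to separate pools or litters, so p-values measure only the spread between these libraries, which may be technical.

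Hox genes encode homeodomain transcription factors that give body regions their identity. They lie in clusters in which gene order follows the order of expression along the body axis, with low numbers anterior and high numbers posterior. Polycomb complexes keep clusters silent where they are not used and trithorax proteins such as the product of Kmt2a keep them active, while CTCF sites separate active from silent parts. In blood, genes of the HoxA and HoxB clusters such as Hoxa9 and Hoxb4 are known from stem and progenitor cells, and their expression falls as T cells mature.

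Libraries held 102718 to 132179 peaks each, with the fewest in WT 1 and the most in WT 2. As a check of the labels, the strongest peak inside the Maf gene body reached 15.0 (WT 1) and 15.9 (WT 2) on the −log10 q scale. In the KO libraries it reached 3.17 and 3.06 and lay elsewhere in the gene, with no overlap with the WT peaks. The ends of 11 of 11 T cell marker genes lay within 1 kb of a peak in all 4 libraries. Of the markers of other cells, 2 of 6 myeloid, 1 of 5 erythroid, 2 of 5 thymic epithelial and 1 of 6 mesenchymal and endothelial genes did so. These were Spi1, Itgam, Epor, Foxn1, Epcam and Col1a1. Mpo, Csf1r, Csf3r, Lyz2, Gata1, Krt5, Psmb11, Pdgfra, Col1a2 and Pecam1 had no peak at their ends in any library. Pdgfra and Pecam1 still had 11 and 8 assigned regions called in all 4 libraries. Among B cell genes, Ebf1, Cd79a and Cd79b also had such a peak in all 4 libraries, and Pax5 had none in any. Per the deposited lists, each peak carries the authors' −log10 q, the strength of its summit against the background of the same library. Heights were compared as percentiles, the rank of a region's strongest peak by −log10 q among all peaks of its library, from 0 for the weakest to 100 for the strongest.

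Hox regions were narrow, and fewer of them were shared by all libraries than elsewhere in the genome, a difference given here as counts with no test. Of the 95 regions, 30 were called in all 4 libraries (31.6%, against 45.9% of all regions) and 42 in 1 library only (44.2%, against 28.6% of all regions). At homeobox genes outside the clusters (Dlx, Lhx and other families), the shares were 33.7% and 37.4% of 406 regions. Low sharing was thus not particular to the Hox genes. Each of these percentages is a share of merged regions. The median width was 142 bp over the Hox regions, 156 bp at the homeobox genes outside the clusters and 176 bp over all regions. Among regions called in all 4 libraries it was 199.5 bp at Hox genes, 240 bp at those homeobox genes and 274 bp over all. The widest of the 95 Hox regions measured 412 bp, inside Hoxa3. At the homeobox genes outside the clusters the widest of 406 measured 824 bp, and over all 171490 regions the widest was 3290 bp. A maximum rises with the number of regions, so these widths do not compare like with like. In bulk libraries fewer cells with an open site and less opening per cell cannot be told apart.

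The promoter windows at hand were largely without peaks. RefSeq promoter windows of GRCm38 (250 bases before to 50 after a transcript start) were at hand for 22 of the 38 members, 24 windows in all. Most were of HoxA and HoxD, with only Hoxb1, Hoxb4 and Hoxb8 from HoxB and only Hoxc4 from HoxC. Among members without a window, Hoxc10 and Hoxb5 had a region called in all 4 libraries 143 bp and 195 bp from the gene body. The windows thus do not stand for all members. Only 1 of the 24, that of Hoxa13, lay under a peak in all 4 libraries (4.17%), against 50.8% of the 21045 windows of protein-coding genes. A further 3 windows were touched by a peak in some libraries, Hoxd1 in WT 2 and KO 1, Hoxa5 in WT 2 and KO 2, and Hoxb4 in KO 1. The other 20 windows had no peak in any library. Among homeobox genes outside the clusters (Dlx, Lhx and other families) 7 of 46 windows were open in all 4 libraries (15.2%), and among T cell markers 11 of 15. Per library, 1 Hox window was open in WT 1, 3 in WT 2, 3 in KO 1 and 2 in KO 2, so the genotypes overlapped. The median number of CpG, the dinucleotide of promoter CpG islands, was 14.5 in Hox windows and 13 in all windows. Of all windows with at least 4 CpG, the lowest Hox count, 64.4% were open in every library, but their median of 19 CpG was above that of the Hox windows.

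**Figure D1:**
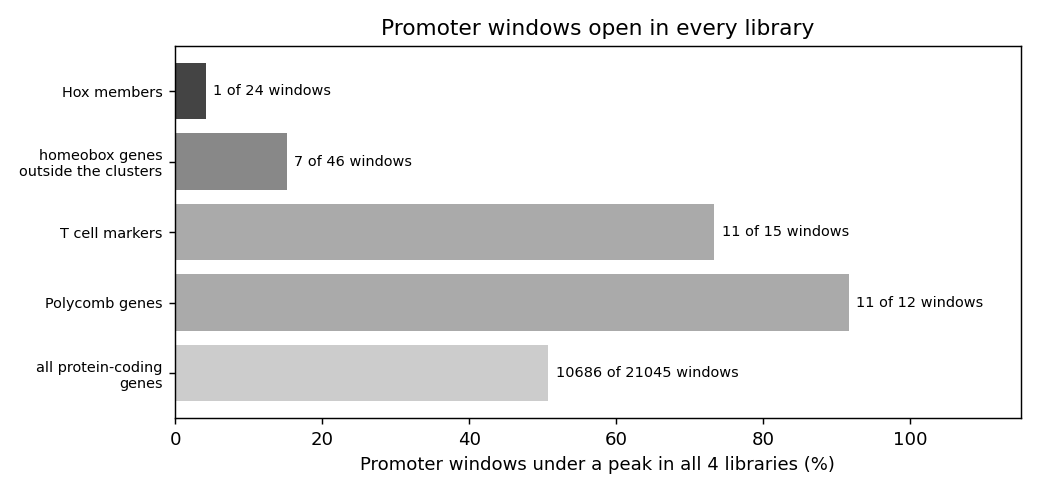
Share of promoter windows (250 bases before to 50 after the transcript start) that lay under a peak in all 4 libraries, in percent, for the 22 Hox members with a window, 3 other gene lists and all protein-coding genes. The bar of the Hox members ends at 4.17% and that of all protein-coding genes at 50.8%.

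The 250 bases before the start of the 4 Hox genes with a touched window follow, with 2 windows that had no peak for comparison. Capitals mark the bases that lie under a merged region, and all sequences run 5′ to 3′ on the gene's strand (RefSeq, GRCm38).
Hoxa13, chr6:52260881-52261130, minus strand: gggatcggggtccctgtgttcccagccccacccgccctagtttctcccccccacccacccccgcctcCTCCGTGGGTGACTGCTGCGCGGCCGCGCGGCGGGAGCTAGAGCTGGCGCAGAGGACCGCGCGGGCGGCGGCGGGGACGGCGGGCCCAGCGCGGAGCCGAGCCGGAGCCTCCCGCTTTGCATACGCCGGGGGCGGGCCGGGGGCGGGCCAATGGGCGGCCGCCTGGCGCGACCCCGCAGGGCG
Hoxd1, chr2:74762730-74762979, plus strand: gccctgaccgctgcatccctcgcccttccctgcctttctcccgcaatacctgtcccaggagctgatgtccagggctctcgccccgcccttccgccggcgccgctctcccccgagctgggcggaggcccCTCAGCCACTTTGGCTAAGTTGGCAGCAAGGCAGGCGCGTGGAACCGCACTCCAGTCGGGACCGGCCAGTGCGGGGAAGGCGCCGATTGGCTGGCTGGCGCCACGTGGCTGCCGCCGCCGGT
Hoxa5, chr6:52204588-52204837, minus strand: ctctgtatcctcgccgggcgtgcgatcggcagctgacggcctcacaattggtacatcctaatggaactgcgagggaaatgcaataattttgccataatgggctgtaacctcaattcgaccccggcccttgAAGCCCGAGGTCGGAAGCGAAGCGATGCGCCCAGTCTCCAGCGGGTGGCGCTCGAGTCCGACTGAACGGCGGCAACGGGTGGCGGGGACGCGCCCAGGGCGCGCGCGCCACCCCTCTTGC
Hoxb4, chr11:96318017-96318266, plus strand: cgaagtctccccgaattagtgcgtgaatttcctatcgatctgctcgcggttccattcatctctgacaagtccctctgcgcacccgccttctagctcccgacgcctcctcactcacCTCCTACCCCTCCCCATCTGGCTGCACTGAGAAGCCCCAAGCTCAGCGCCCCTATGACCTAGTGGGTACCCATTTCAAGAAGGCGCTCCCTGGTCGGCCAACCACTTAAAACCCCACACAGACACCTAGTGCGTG
Hoxa9, chr6:52227371-52227620, minus strand: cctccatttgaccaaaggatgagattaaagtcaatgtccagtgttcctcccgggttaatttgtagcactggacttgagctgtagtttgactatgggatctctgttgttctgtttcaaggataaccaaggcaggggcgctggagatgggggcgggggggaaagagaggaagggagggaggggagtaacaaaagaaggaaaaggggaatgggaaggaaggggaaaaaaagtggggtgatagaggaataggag
Hoxd13, chr2:74667975-74668224, plus strand: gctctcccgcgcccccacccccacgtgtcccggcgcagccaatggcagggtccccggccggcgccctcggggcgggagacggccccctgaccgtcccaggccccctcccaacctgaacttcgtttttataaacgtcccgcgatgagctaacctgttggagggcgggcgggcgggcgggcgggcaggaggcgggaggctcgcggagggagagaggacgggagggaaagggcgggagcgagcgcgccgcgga
In the Hoxa13 sequence 183 of the 250 bases lay under the region open in all 4 libraries, and 80% of the bases were G or C, with 35 CpG. The open part adjoined the transcript start, as it did in Hoxd1 (122 bases), Hoxa5 (120 bases) and Hoxb4 (135 bases). The 2 sequences without a peak differed widely in composition. Hoxd13 had 74.4% G or C and 31 CpG, and Hoxa9 had 49.6% and 3 CpG.

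Letter patterns of 4 known elements were searched on both strands of the 24 windows. The HOX-PBX pattern TGATNNAT, bound by Hox proteins with their Pbx partners, was in 4 Hox windows (16.7%, against 7.36% of all windows). These were windows of Hoxa2, Hoxb1, Hoxb8 and Hoxd11, and none of the 4 was under a peak. TATAAA, the TATA box, was in 4 Hox windows (16.7%, against 12.7% of all), 1 each of Hoxd13, Hoxd4, Hoxa10 and Hoxb8. The AP-1 pattern TGANTCA was in 1 Hox window, of Hoxd11 (4.17%, against 7.04% of all). A Maf core pattern, TGCTGAC, which can overlap the AP-1 pattern, was in 0 Hox windows and in 4.35% of all windows. These are matches of letters in these windows and not binding sites, and where a pattern was not found it is only these letters that are missing from these windows.

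The 4 clusters differed in how much of their open chromatin was shared by all libraries. HoxB had 13 regions called in all 4 libraries, HoxA 10, HoxC 4 and HoxD 3. Relative to the span from the first to the last member, HoxA was the densest, with 0.914 such regions per 10 kb inside its 98.5 kb. HoxB had 0.632 over 173.9 kb, HoxC 0.346 over 115.7 kb and HoxD 0.310 over 96.9 kb. As a share of each cluster's own regions, all 4 libraries called 10 of 20 in HoxA, 13 of 38 in HoxB, 4 of 15 in HoxC and 3 of 22 in HoxD. HoxD therefore had more regions than HoxC and the fewest in common. Its count rose from 3 to 7 when WT 1, the library with the fewest peaks, was left out. Peaks covered 1.34% to 2.42% of the HoxA span in the 4 libraries, 1.15% to 2.03% of HoxB, 0.540% to 1.19% of HoxC and 0.739% to 2.42% of HoxD.

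**Figure D2:**
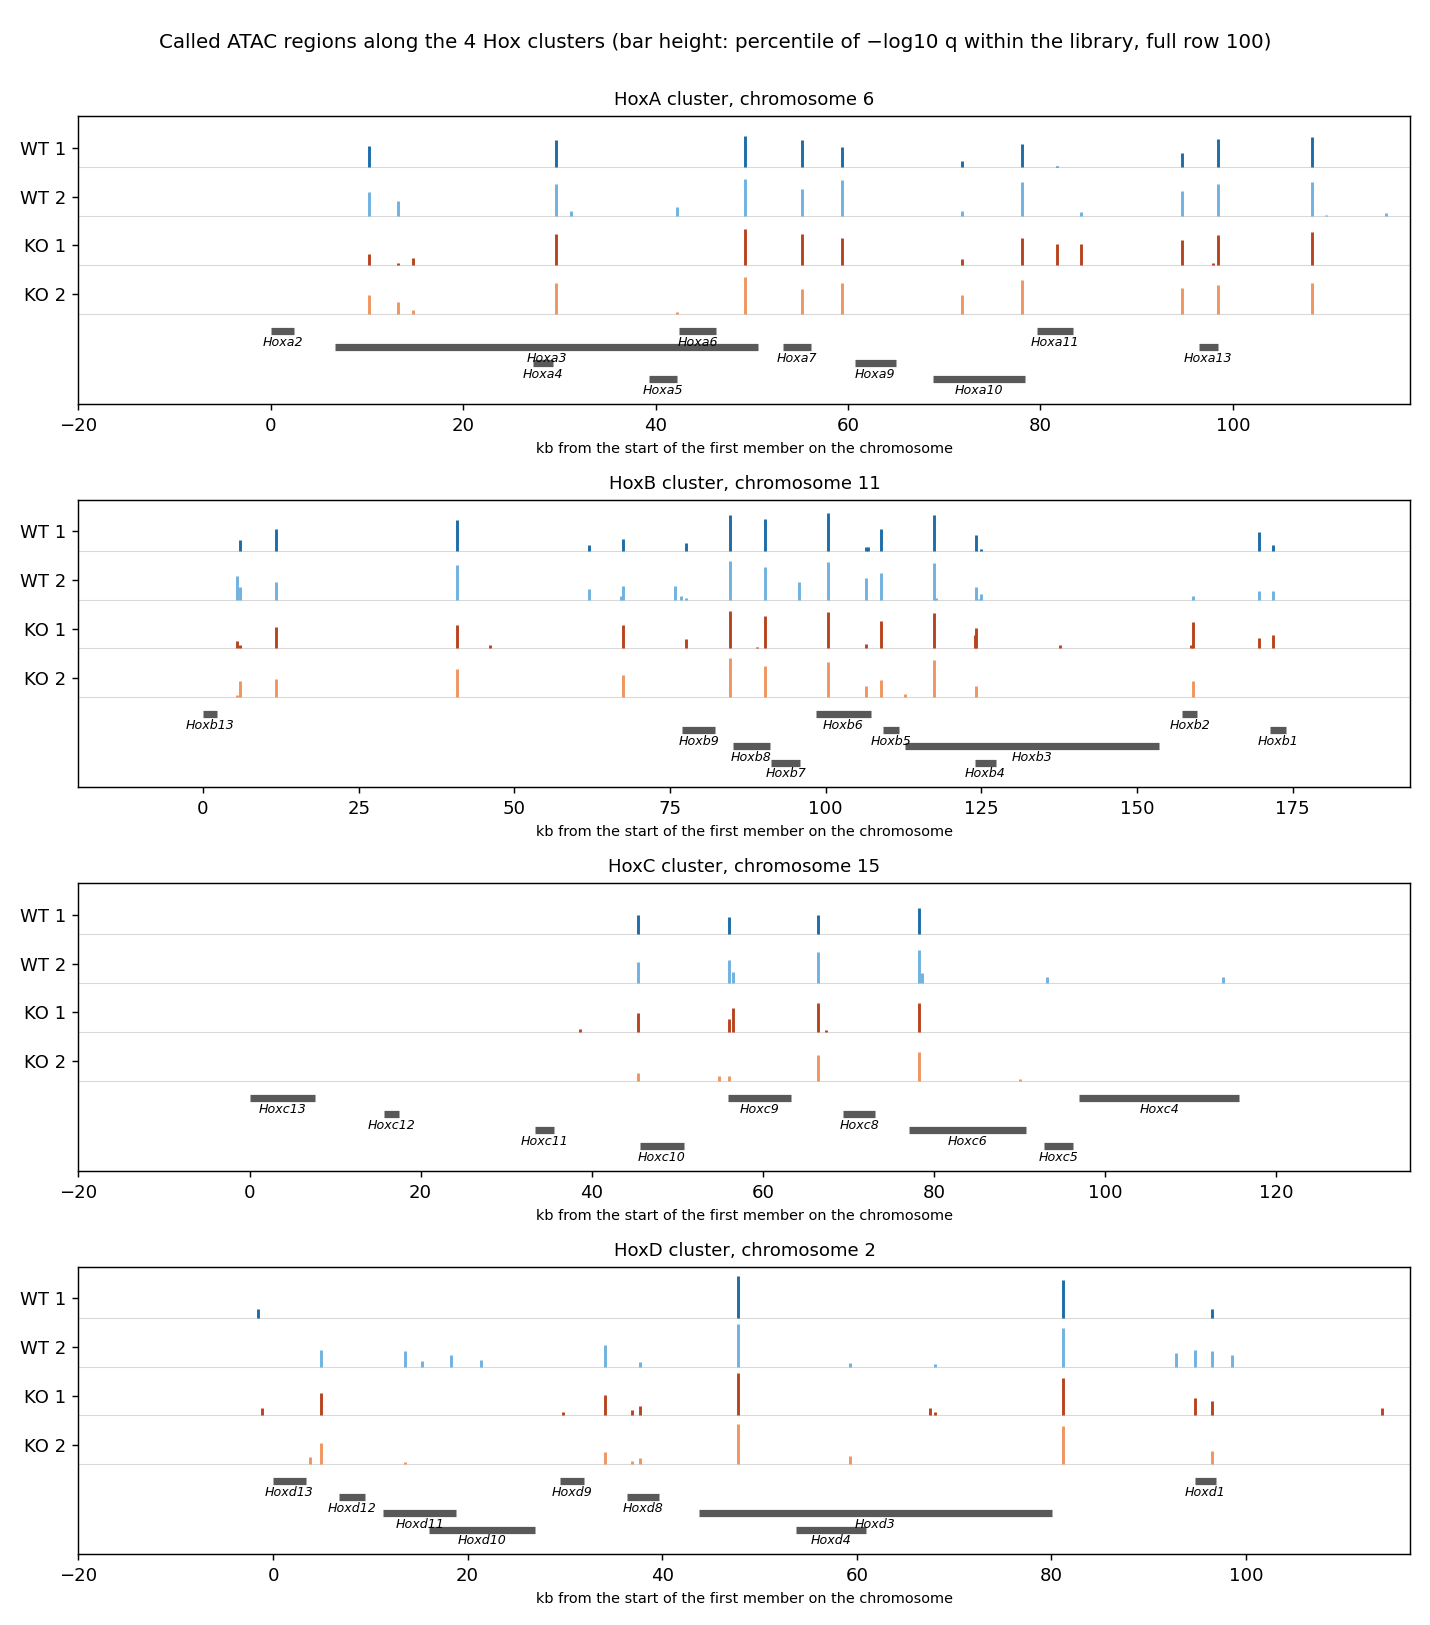
Hox regions along the 4 clusters, in kb from the start of the first member on the chromosome, with 1 row per library and gene bodies below in grey. Each bar is a called region, and its height is the percentile of its strongest peak by −log10 q within that library. The tallest bars stand in HoxD inside Hoxd3, and the Hoxc13 and Hoxc12 end of HoxC has none. Regions over 20 kb beyond a cluster are not drawn.

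HoxD held the strongest Hox region of all. It lay at chr2:74715812-74716130, inside Hoxd3 and inside the antisense transcript Hoxd3os1. Its −log10 q was 94.1 in WT 1, 186.0 in WT 2, 121.1 in KO 1 and 97.1 in KO 2, percentiles of 95.0, 96.7, 96.2 and 92.5. The genotypes overlapped, and KO 2 was the lowest. A further strong region at chr2:74749279-74749659, 1.01 kb from Hoxd3 and inside the long noncoding RNA Haglr, had percentiles of 87.1, 88.7, 85.4 and 87.2 in WT 1, WT 2, KO 1 and KO 2. Hoxd3 belongs to the anterior genes of its cluster, but its annotated body also spans Hoxd4. The strongest region lay between Hoxd8 and Hoxd4, so its label does not give an anterior position. No region assigned to the posterior HoxD genes, which pattern limbs and genitals, was called in all 4 libraries. The nearest such region to Hoxd13 lay 4414 bp away and was assigned to another gene. Hoxd12 had no region, Hoxd10 had 1 in WT 2 alone, and Hoxd13, Hoxd11, Hoxd9 and Hoxd8 each had 1 region called in WT 2, KO 1 and KO 2 but not in WT 1. Hoxd4 had 1 region, in WT 2 and KO 2. At Hoxd1, the anterior end, the region shared by all libraries (chr2:74764701-74764857) was weak, with percentiles of 20.5, 35.9, 33.3 and 29.6 in the same order.

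In HoxB, the regions called in every library were densest from Hoxb8 to Hoxb4, and others lay at a distance from Hoxb13, Hoxb9 and Hoxb1. The region with the highest lowest-of-4 percentile stood 0.342 kb from Hoxb8, at chr11:96278886-96279059, with −log10 q values of 31.9 in WT 1, 78.6 in WT 2, 42.4 in KO 1 and 70.8 in KO 2. Its percentiles were 80.6, 88.4, 84.9 and 88.6, so the genotypes overlapped, with the lowest value in WT 1. A region inside Hoxb6 (chr11:96294607-96294808) had percentiles of 86.3 and 85.4 in WT and 82.7 and 79.5 in KO. Both KO values were the lower ones there. A region at chr11:96311631-96311888, assigned to Hoxb3 because the long Hoxb3 body covers the stretch between Hoxb5 and Hoxb4, had percentiles of 82.6, 84.5, 79.9 and 84.4. Here the genotypes overlapped. Inside Hoxb8 itself a second site (chr11:96284447-96284703) was nearly level across libraries, with percentiles of 73.0, 74.0, 73.8 and 71.6.

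Hoxb4, which is known for expanding blood stem cells when forced, had a weak region 82 bp inside its body (chr11:96318349-96318706). Its percentiles were 37.1 in WT 1, 29.0 in WT 2, 46.8 in KO 1 and 25 in KO 2, and the KO libraries enclosed the WT ones. Hoxb5 had a region 0.195 kb away (49.0, 61.6, 63.0 and 39.0 in the same order). Hoxb7 had 1 region, in WT 2 alone, and Hoxb2 had 2, none called in all 4. Hoxb13, the most posterior HoxB gene, had 2 regions called in all 4 libraries. The one 3.56 kb away had percentiles of 24.5 and 28.6 in WT and 7.65 and 36.3 in KO, and the one 9.41 kb away had 50.6 and 39.7 in WT and 48.9 and 40.8 in KO, so the genotypes overlapped at both. Beyond the cluster's anterior end, a region 39.5 kb from Hoxb1 had percentiles of 78.1 and 77.6 in WT and 76.1 and 68.1 in KO. In the gap between Hoxb13 and Hoxb9, a region 36.1 kb from Hoxb9 had 70.2 and 79.4 in WT and 52.6 and 64.6 in KO. Distal regions like these are assigned by distance alone, and which gene they act on was not tested.

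HoxA had regions called in every library from Hoxa3 to Hoxa13, most of them of middle height. The strongest, at chr6:52211644-52211838, lay inside the Hoxa3 body and the antisense transcript Hoxaas3. It had a −log10 q of 20.2 in WT 1, 58.1 in WT 2, 34.5 in KO 1 and 52.9 in KO 2, and percentiles of 71.1, 83.9, 81.5 and 84.1. WT 1 was the lowest and the other 3 were close together. Hoxa3 itself is needed for the thymus to form from the pharyngeal pouch, but its annotated body also spans Hoxa4, Hoxa5 and Hoxa6. Of its 3 regions open in every library, 1 lay just beyond Hoxa4 and the strongest lay between Hoxa6 and Hoxa7. Hoxa7 had a region inside the gene with percentiles of 62.1, 62.1, 71.1 and 57.0. Hoxa9, a gene of blood progenitors and of leukaemias with rearranged Kmt2a, had a region 1.19 kb from the gene with 45.7, 81.4, 62.1 and 69.6, the widest gap between the WT libraries among the HoxA regions called in all 4. Hoxa10 had 2 regions inside the gene, the stronger with 52.4, 77.8, 62.4 and 76.7 and the weaker with 15.4, 11.7, 14.3 and 42.4, where KO 2 stood above the rest. The promoter region of Hoxa13, whose sequence is shown above, had 64.6, 72.7, 68.5 and 64.3. Hoxa13 is the most posterior HoxA gene, and a further region 9.67 kb beyond it had 69.3, 78.0, 74.4 and 70.3. Hoxa2 and Hoxa6 had no region, Hoxa4 had 1 in WT 2 alone, and Hoxa5 and Hoxa11 had 1 and 2 called in 2 libraries each.

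In HoxC, regions called in every library lay in the middle of the cluster. These 4 were at Hoxc10, Hoxc9, Hoxc8 and Hoxc6. The region with the highest lowest-of-4 percentile, inside Hoxc6 (chr15:102999267-102999520), had −log10 q values of 13.3 in WT 1, 35.9 in WT 2, 15.8 in KO 1 and 21.2 in KO 2, and percentiles of 60.6, 75.4, 65.1 and 64.3. Hoxc8 followed with 43.2, 70.6, 65.9 and 58.9, and the genotypes overlapped at both. Hoxc9 and Hoxc10 were the weak ones, with lowest percentiles of 11.1 and 18.2, both in KO 2. Hoxc13 and Hoxc12 had no region, Hoxc11 had 1 in KO 1 alone, and Hoxc5 and Hoxc4 had 2 each, all in 1 library. With a −log10 q of at least 5 required, the HoxC count fell from 4 to 2.

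By paralogue number of the assigned gene, which gives that gene's place in its cluster, regions shared by all libraries occurred in low and high groups. The number of the assigned gene is not always the place of the region. The strongest such regions of Hoxa3, Hoxb3 and Hoxd3 lay beside higher-numbered genes. Those of Hoxb1 lay 23.2 and 39.5 kb from the gene. Of the 7 members of groups 1 to 3, 5 had such a region, of the 15 members of groups 4 to 8, 7 had, and of the 16 members of groups 9 to 13, 7 had. In all, 19 of 38 members had a region called in all 4 libraries (50%), against 75.2% of protein-coding genes and 79.6% of homeobox genes outside the clusters. By gene ends, a peak lay within 1 kb of either end in all 4 libraries for 12 of 38 members (31.6%), against 59.9% of protein-coding genes. These 12 were Hoxa4, Hoxa7, Hoxa10, Hoxa13, Hoxb4 to Hoxb8, Hoxc9, Hoxc10 and Hoxd1. For homeobox genes outside the clusters the share was 33.3%, close to that of the Hox genes. In dense clusters such a peak can belong to the neighbouring gene.

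The number of Hox regions differed more between libraries of 1 genotype than between genotypes. WT 1 called 39, WT 2 called 72, KO 1 called 62 and KO 2 called 46. The WT libraries were thus the lowest and the highest, with both KO libraries between them. WT libraries averaged 55.5 ± 23.3 Hox regions and KO libraries 54 ± 11.3 (SD, n = 2 each). KO minus WT came to −1.5 regions (exact two-sided permutation p = 1.00, where 0.33 is the smallest p that 2 against 2 allows). Without WT 2 the difference turned to 15, and without KO 2 to 6.5. With the 102718 strongest peaks kept in each library, the counts were 39 and 45 in WT and 38 and 36 in KO, so both WT libraries were above both KO libraries, and KO minus WT was −5 regions (exact two-sided permutation p = 0.33, the smallest possible). Per 100000 regions called in a library, Hox regions numbered 39.8, 55.3, 49.1 and 39.1 in WT 1, WT 2, KO 1 and KO 2, so WT 2 was the highest on this scale too. Every cluster had its highest count in WT 2. The lowest was in WT 1 for HoxA (11), HoxC (4) and HoxD (4), and in KO 2 for HoxB (17). Regions called in 1 library alone numbered 22 in WT 2, 14 in KO 1, 4 in KO 2 and 2 in WT 1, and none of the 42 had a −log10 q above 8.38.

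**Figure D3:**
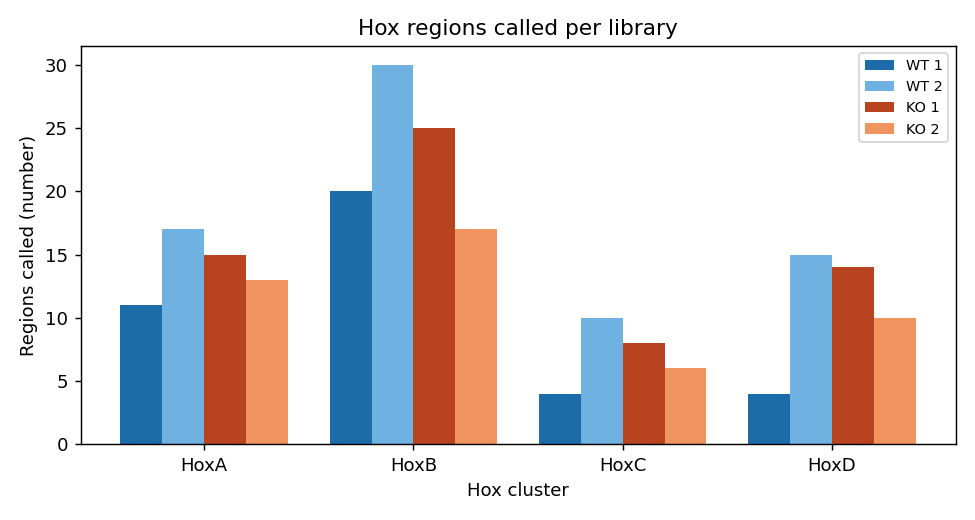
Number of Hox regions called in each library, by cluster, with WT in blue shades and KO in red and orange. WT 2 has the highest bar in every cluster, and HoxB ranges from 17 in KO 2 to 30 in WT 2.

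Few Hox regions were called in 1 genotype alone. Of the 53 Hox regions called in at least 2 libraries, 3 were called in both WT and neither KO library (5.66%, against 2.89% of all such regions). In the other direction 2 were called in both KO and neither WT library (3.77%, against 4.34% of all such regions). All 3 WT-only regions were in HoxB. They lay 15.0 kb from Hoxb9 (−log10 q values 2.91 for WT 1 and 4.77 for WT 2), inside Hoxb4 (2.01 and 3.29) and 45.0 kb from Hoxb1 (3.71 and 14.9). The KO-only regions were inside Hoxd8 (2.77 in KO 1 and 2.80 in KO 2) and inside Hoxa3 (3.17 and 3.56). In each of the 5, at least 1 library had a −log10 q under 4, and every KO-only value was under 4. A region inside Hoxb2, chr11:96353290-96353431, was chosen after its values were seen. There WT 1 had no peak, WT 2 had a −log10 q of 2.72, KO 1 had 13.3 and KO 2 had 8.05. It was 1 of 8 Hox regions called in every library but WT 1 (8.42% of Hox regions, against 7.58% of all regions). The WT-only and KO-only counts both moved with the library left out, and leaving 1 out loosens both definitions. Without WT 1, for example, the 22 regions called in WT 2 alone count as WT-only. The matching shares over all regions were not computed for these settings. WT-only regions were 25 without WT 1, 5 without WT 2 and 6 without KO 1. KO-only regions were 16 without KO 2, 6 without KO 1 and 10 without WT 2.

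Among the 30 Hox regions called in every library, mean heights overlapped between the genotypes when all peaks were kept. With equal numbers of peaks they did not overlap, as given below. The mean percentile was 53.4 in WT 1, 63.4 in WT 2, 58.7 in KO 1 and 57.9 in KO 2, again with both KO libraries between the WT ones. The group means were 58.4 ± 7.08 (WT) and 58.3 ± 0.588 (KO), SD over 2 libraries each, and KO minus WT was −0.14 points (exact two-sided permutation p = 1.00). It turned to 4.87 without WT 2 and 0.69 without KO 2. Over all 78650 regions called in 4 libraries the mean percentiles were 58.4, 67.1, 66.2 and 64.2, each above the Hox value of the same library. The libraries stood in the same order there, with WT 1 lowest and WT 2 highest, so that order was not particular to the Hox regions. In 5 of the 30 Hox regions (16.7%) the lowest of the 4 percentiles was at least 75, against 28.6% of all such regions. At homeobox genes outside the clusters the share was 15.3%, close to that of the Hox regions. By cluster, the mean difference between KO and WT was 2.12 points in HoxA, 1.03 in HoxB, −9.77 in HoxC and 0.08 in HoxD. HoxC averaged 54.1 ± 10.9 (WT) and 44.4 ± 8.83 (KO) over n = 2 libraries each (exact two-sided permutation p = 0.667), on 4 regions.

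**Figure D4:**
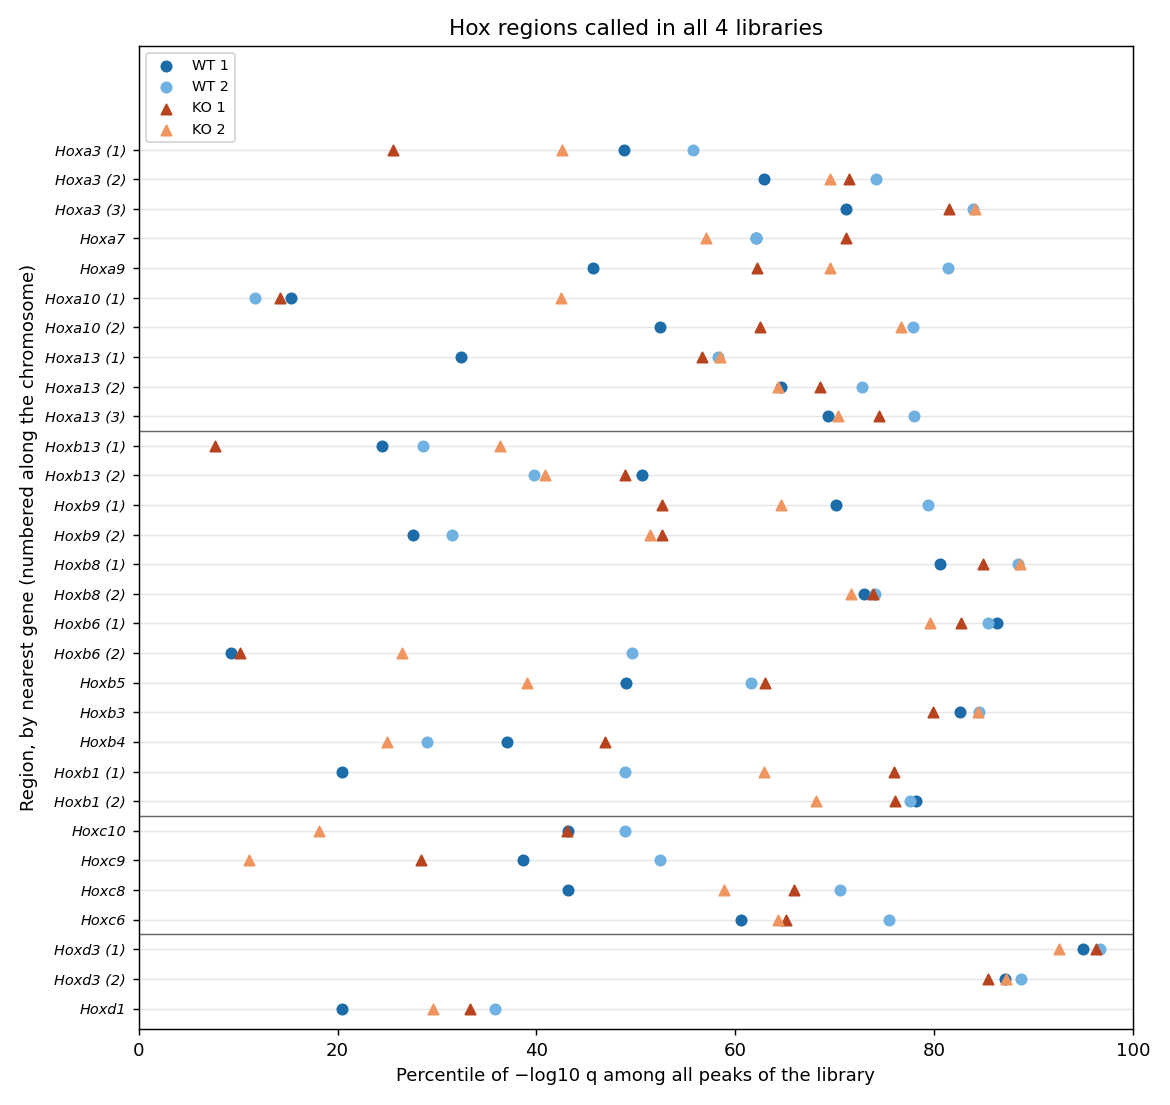
Percentile of −log10 q within each library for the 30 Hox regions called in all 4 libraries, WT as circles and KO as triangles, grouped by cluster and numbered along the chromosome where a gene has several. The regions inside and beside Hoxd3 sit at 85.4 or above in every library, and in 22 of the 30 rows the genotypes overlap.

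In 6 of the 30 regions both WT percentiles were above both KO percentiles (20%, against 13.0% of all regions called in 4 libraries). They were the first Hoxa3 region (48.8 and 55.8 in WT, 25.6 and 42.6 in KO), the Hoxb6 region and the distal Hoxb9 and Hoxb1 regions given above, and those of Hoxc9 (38.7 and 52.4 against 28.3 and 11.1) and Hoxc10 (43.2 and 48.9 against 43.0 and 18.2). In 2 regions both KO percentiles were the higher ones (6.67%, against 23.8% of all). One lay 9.52 kb from Hoxb9 (27.6 and 31.5 in WT, 52.6 and 51.5 in KO) and the other 23.2 kb from Hoxb1 (20.5 and 48.9 in WT, 76.0 and 62.9 in KO). When the same number of peaks, the 102718 strongest, was kept in each library, 9 of 26 Hox regions had both WT values on top (against 20.1% of all regions) and 2 both KO values (against 21.9%). The mean percentiles were then 58.2 and 58.4 in WT and 55.9 and 55.9 in KO, a difference of −2.46 (exact two-sided permutation p = 0.33, the smallest possible). Over all 71925 regions called in 4 libraries in this setting they were 61.5 and 62.0 in WT and 61.7 and 62.3 in KO. The genotypes thus overlapped over all regions. Leaving out a library raised the count with WT on top from 6 to 23 without WT 1 and to 12 without KO 1. The count with KO on top rose from 2 to 8 without WT 1, 13 without WT 2, 7 without KO 1 and 7 without KO 2. With 1 library left in a genotype the condition is easier to meet, so such rises come with the setting. The regions called in all remaining libraries numbered 38 without WT 1, 33 without KO 2 and 30 without WT 2 or KO 1. The matching shares over all regions were not computed.

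Genes that work with or on the Hox clusters are given by list. The TALE cofactors, which bind DNA together with Hox proteins, had a region called in all 4 libraries at 9 of 9 genes, against 75.2% of protein-coding genes. Meis1 had 30 regions, 17 of them called in every library, 3 KO-only and 0 WT-only, and Pbx2 had 1 region. The cofactors together had 3 WT-only and 3 KO-only of 79 regions called in at least 2 libraries. Across the genome the WT-only share of such regions was 2.89% and the KO-only share 4.34%, which also apply to the lists that follow. Polycomb genes had such a region at 13 of 13 genes, with 5 WT-only and 7 KO-only of 113, from 51 regions at Jarid2 to 1 at Ring1. Trithorax and upstream genes had it at 9 of 9, with 3 WT-only and 1 KO-only of 56. In that list Kmt2a had 16 regions and Cdx4, an activator of Hox genes in the embryo, had 2. Genes for CTCF and cohesin had it at 4 of 4, with 0 WT-only and 1 KO-only of 28, from 19 regions at Stag2 to 7 at Rad21. The neighbours of the clusters had it at 21 of 21 genes found in the gene table, with 6 WT-only and 4 KO-only of 184, from 49 regions at Skap1 to 3 at Snx11, Hnrnpa1 and Atp5g2. Homeobox genes outside the clusters had it at 43 of 54, with 7 WT-only and 16 KO-only of 254, from 23 regions at Dlx2 to 0 at Tlx2 and Alx1. That list also held Pax1 and Pax9, paired-box genes without a homeobox, which had no region called in all 4 libraries. These region counts are not scaled by gene length, and Hox genes are packed closely together.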

How the data were processed

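The members and gene lists were chosen with earlier results of these data known. Per the submitters' processing notes, MACS2 2.1.1, Bowtie2 2.3.4.1, deepTools 3.1.2, Picard, bedtools, cutadapt and Trim Galore were used, with mm10 and GRCm38 as builds. Not given in the sources used here were their roles, the Tn5 shift, duplicate handling and peak settings. The authors deposited 1 narrowPeak list per library, not pooled. The deposited lists give a whole-number score, about 10 times the −log10 q. The deposited fold is the ratio of summit to local background. The deposited −log10 p and −log10 q are computed within the library, and lists end near a q of 0.1. Read depth was not analysed here, and the number of peaks per library is given in its place without standing for depth alone.

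Peaks on chromosomes 1 to 19 and X were merged and assigned in Python 3.11.15 with pandas 2.3.3. Nested or overlapping gene bodies at equal distance were settled for the shortest body, which touched 8 Hox regions and never a gene outside the set. 1 marker gene is not reported here. Merging and assignment were tested on simulated data. Differences between genotypes used exact permutation tests over libraries. Named members were the 10 with the highest lowest-of-4 percentile and every member with a WT-only or KO-only region; others are named to account for all 38. Promoter windows, 4 motifs and the percentile order of genotypes were added after seeing the data. Alternatives were a −log10 q of at least 5, equal peak numbers, at least 0.5 of a region covered, assignment within 20 kb, genes of any type, each library left out, and a block on replicate number.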

Additional observations from a re-analysis of the deposited data

How the results depend on the processing

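Peak lists are thresholded, so a region missing from a library may be open below the limit of detection. With 2 libraries a genotype, no exact permutation test between genotypes could go below p = 0.33. The difference in Hox regions per library (−1.5) was −5 with equal peak numbers (exact p = 0.33), −6 with at least 0.5 of a region covered and 0 with genes of any type, and −18 to 15 with 1 library left out, turning positive at 15 without WT 2 and 6.5 without KO 2. The percentile difference (−0.14) turned to 0.79 at a −log10 q of at least 5, and ran from −4.86 to 4.87 with 1 library left out, positive without WT 2 (4.87) and without KO 2 (0.69). WT-only regions (3) were 1 at a −log10 q of at least 5 and 1 with genes of any type, and 3 to 25 with 1 library left out. KO-only regions (2) were 1 with at least 0.5 of a region covered, 1 with equal peak numbers and 1 with genes of any type, and 2 to 16 with 1 library left out. Leaving out a library loosens both definitions. Regions in all libraries fell to 6 in HoxB and 1 in HoxD with genes of any type, where antisense and other noncoding genes take regions from the members, and to 2 in HoxC at a −log10 q of at least 5. In HoxD they ran from 3 to 7 with 1 library left out, 7 without WT 1. Members with a region in all libraries (19) numbered 14 to 24 over the alternatives, and the single promoter window open in all libraries stayed 1 in each alternative run for it. With a replicate block the differences were the same, −1.5 and −0.14 (exact p = 1.00 for both, smallest possible 0.5), and changed no call. The labels do not say that a number pairs libraries, and same-numbered libraries did not deviate together (r = −0.00394 over 78650 regions).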

Other observations

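Summits of the Hox regions called in all 4 libraries lay close together between libraries. These Hox regions were also narrower, with a median width of 199.5 bp against 274 bp, and summit distances were not scaled by width. The median distance between the outermost summits was 34 bp, against 41 bp over all regions called in all 4 libraries. At the Hoxb3 region between Hoxb5 and Hoxb4 it was 1 bp, and at the Hoxa7 region 3 bp, while at the first Hoxa3 region, the widest of the set, it was 140 bp.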
